A study of Homo sapiens with 14 samples.

Results

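The sites described here were adenosines that read as guanosine in RNA from cells carrying the editor dCas13d-ADAR and that no library of the editor REPAIR.t1 listed. They were chosen by listing alone. A site (chromosome and position) was a member if at least 3 of the 4 dCas13d-ADAR lists held it and none of the 4 REPAIR.t1 lists did. The rule gave 648 sites of the 26172 in any list of the series. That was 3.77% of the 17194 sites listed by either of the 2 editors, a share fixed by the rule.

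All cells were HEK293T, a human embryonic kidney line, and all carried an RNA base editor. The labels give 14 libraries of polyadenylated RNA in 7 groups of 2. These are dCas13d-ADAR with an NT or EZH2 guide, REPAIR.t1 with an NT or EZH2_A22 guide, REPAIRv2 with an NT or EZH2_A22 guide, and DECOR with a MALAT1 guide. The titles write Repair.t1 and Repair.v2, and they spell out neither NT nor A22. They do not name the promoter, the delivery or the dose of any editor. The series title names an evolved bacterial adenosine deaminase, and the lists let the editors be set side by side. Read 1 and read 2 had 25 and 97 cycles in all but the DECOR libraries, which had 62 and 160, so for DECOR the editor cannot be told apart from its guide or its reads.

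ADAR enzymes deaminate adenosine to inosine in double-stranded RNA, and sequencing reads inosine as guanosine. In a Cas13-based editor, a catalytically inactive Cas13 protein and its guide RNA bring an ADAR deaminase domain to a chosen transcript. The same deaminase can also act on transcripts the guide does not match, and such transcriptome-wide editing is what lists of this kind are used to count. Many human transcripts are also edited by the cell's own ADAR enzymes, most of all in repeats that fold back on themselves.

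Each list gave the A-to-G rate of a site as a fraction from 0 to 1, called the editing level here. No read count, coverage or strand accompanied it, so depth is unknown and no counting error can be given for a level. Absence from a list can mean no editing, editing under whatever threshold was applied, or thin coverage. No library without an editor was analysed, so a listed site need not be the editor's work. The labels do not say if replicate libraries are separate cultures, so a p-value reflects only how far these libraries differ, possibly for technical reasons. The 4 dCas13d-ADAR lists held 5730 to 5834 sites and the 4 REPAIR.t1 lists 4356 to 4784. Positions follow hg19 (GRCh37), named in the submitters' processing notes, and genes, strands and neighbouring bases were not analysed here.

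Member sites were a sizeable part of what dCas13d-ADAR edited reproducibly, and they were edited at lower levels than the rest. Of the 3276 sites in at least 3 dCas13d-ADAR lists, 648 (19.8%) were in no REPAIR.t1 list, 607 were in 1, 621 in 2, 612 in 3 and 788 (24.1%) in all 4. The median over sites of the mean dCas13d-ADAR level was 0.255 for the members. It was 0.281, 0.283 and 0.296 for sites in 1, 2 and 3 REPAIR.t1 lists, and 0.337 for sites in all 4. Members with a mean level of at least 0.5 numbered 13 (2.01%), against 187 (7.12%) of the 2628 sites that at least 1 REPAIR.t1 list held, called shared sites here. Members with a mean level below 0.2 numbered 178 (27.5%), against 382 (14.5%). Listing and level come from the contrast the rule used, so these values are a description and were not tested.

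**Figure D1:**
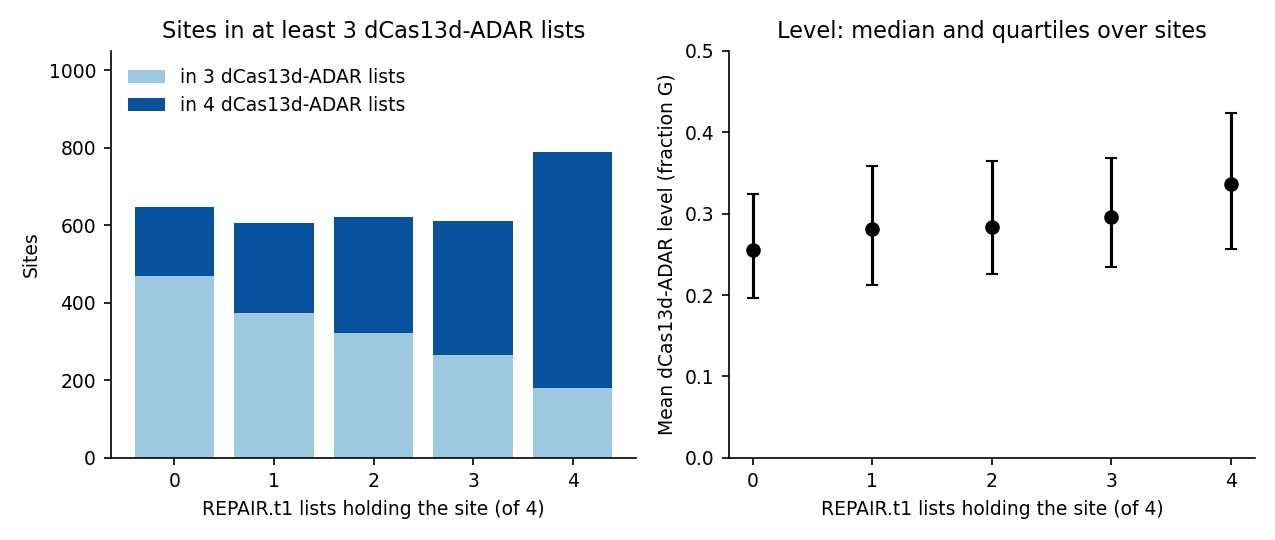
Left, sites in at least 3 dCas13d-ADAR lists (vertical axis, number of sites) by how many of the 4 REPAIR.t1 lists held them, split into sites in 3 and in 4 dCas13d-ADAR lists; the bar at 0 holds the 648 members, 178 of them in 4 lists. Right, the mean dCas13d-ADAR level of the same sites, as the median (point) and quartiles (bars) over sites, from 0.255 at 0 lists to 0.337 at 4.

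Most members were near the edge of the rule. Of the 648, 470 were in exactly 3 dCas13d-ADAR lists and 178 (27.5%) in all 4, whereas 56.6% of the 2628 sites shared with REPAIR.t1 were in all 4. The missing library was NT replicate 1 for 120 members, NT replicate 2 for 101, EZH2 replicate 1 for 129 and EZH2 replicate 2 for 120, so no library stood out. With NT replicate 1, NT replicate 2, EZH2 replicate 1 or EZH2 replicate 2 left out and all 3 others required, 298, 279, 307 and 298 sites met the rule. Members in 3 and in 4 lists had similar levels, with medians of 0.253 and 0.258. The converse sites, in at least 3 REPAIR.t1 lists and no dCas13d-ADAR list, numbered 334, or 14.3% of the 2334 sites in at least 3 REPAIR.t1 lists. Their median REPAIR.t1 level was 0.259.

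By the rule each member is in at least 3 of the 4 dCas13d-ADAR lists. Similar numbers of members in these lists are therefore largely built in. NT replicate 1 listed 528 members, NT replicate 2 listed 547, EZH2 replicate 1 listed 519 and EZH2 replicate 2 listed 528, a mean of 530.5 ± 11.8 (SD, n = 4). That mean is fixed by how many members were in 3 and in 4 lists. Members made up 9.21%, 9.44%, 8.90% and 9.11% of these lists in the same order. Their median level was 0.250 in 3 of the libraries and 0.247 in EZH2 replicate 2. In each library it lay below the median of the sites shared with REPAIR.t1, which was 0.296 to 0.300. Between libraries the level of a single member moved more, with a median SD of 0.0449 over the libraries that listed it. Across the 178 members in all 4 lists, the 6 pairs of libraries correlated at Pearson's r of 0.577 to 0.632. Across the 1487 shared sites in all 4 lists r was 0.605 to 0.676. These correlations are across sites, which share the same libraries and are not independent replicates.

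Among the 178 members in all 4 lists, the highest was position 121437104 on chromosome 10. It was edited at 0.533 and 0.563 in the NT libraries and at 0.739 and 0.611 in the EZH2 libraries, a mean of 0.612 ± 0.0909 (SD, n = 4). The level was above 0.5 in every dCas13d-ADAR library, and no REPAIR.t1 list held the position. Position 65268834 on chromosome 15 followed at 0.765 and 0.438 with NT and 0.476 and 0.550 with EZH2 (mean 0.557 ± 0.146). Position 41306676 on chromosome 19 had 0.455 and 0.75 with NT and 0.400 and 0.571 with EZH2 (mean 0.544 ± 0.155). In both of these sites 1 NT library was far above the other, and the NT and EZH2 values overlapped. Position 102508768 on chromosome 14 had 0.619 and 0.652 with NT and 0.308 and 0.435 with EZH2 (mean 0.503 ± 0.162), without overlap between the guides. Position 10662906 on chromosome 19 had 0.316 and 0.647 with NT and 0.5 and 0.542 with EZH2 (mean 0.501 ± 0.138).

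Below these 5, the next 10 members in all 4 lists had mean levels of 0.484 to 0.410. Position 38266197 on chromosome 1 (0.484 ± 0.0614, SD, n = 4), 23403770 on chromosome 1 (0.440 ± 0.0522) and 132632269 on chromosome 12 (0.437 ± 0.0632) varied least among them. Position 41620040 on chromosome 22 (0.458 ± 0.0912), 127292492 on chromosome 3 (0.419 ± 0.0918) and 42303115 on chromosome 22 (0.410 ± 0.0864) were intermediate. Position 113624545 on chromosome 12 (0.426 ± 0.145), 40964303 on chromosome 19 (0.422 ± 0.118), 179225014 on chromosome 5 (0.415 ± 0.108) and 29543179 on chromosome 1 (0.411 ± 0.136) varied most. Neighbours in the order of these 15 sites differed by less than their SDs.

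**Figure D2:**
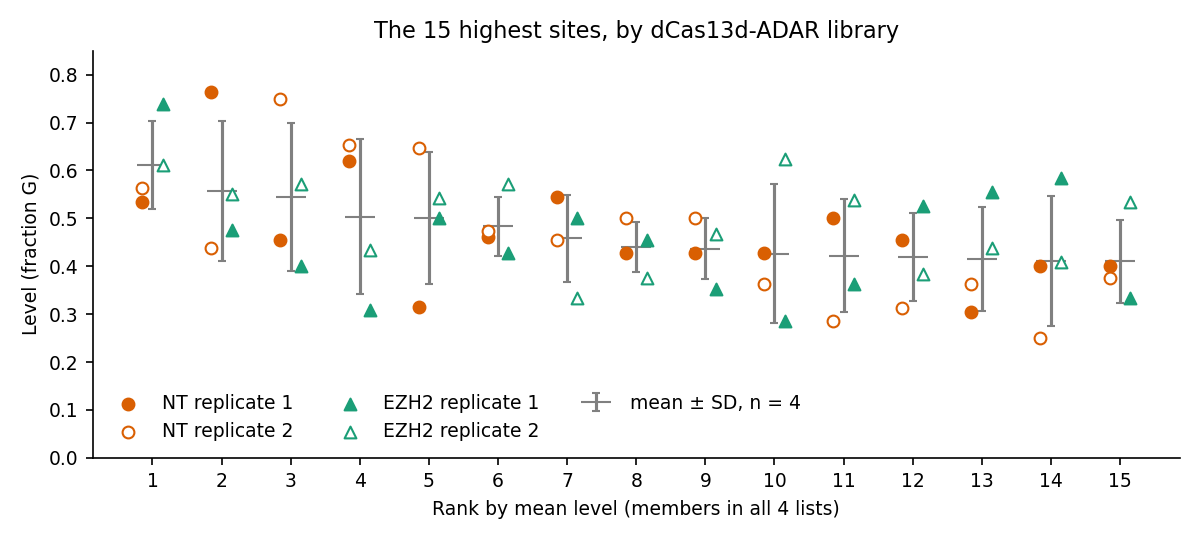
The level (fraction of reads with G) in each dCas13d-ADAR library at the 15 members with the highest mean level among those in all 4 lists, ordered by mean; circles are NT and triangles EZH2 libraries, filled for replicate 1 and open for replicate 2, and grey marks give mean ± SD over the 4. The means run from 0.612 to 0.410, and the libraries spread widely at some sites, as at rank 2, where they run from 0.438 to 0.765.

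At the other end, members were edited at low levels, with small SDs. Position 60714868 on chromosome 20 had the lowest mean of the members in all 4 lists, at 0.104 and 0.111 with NT and 0.114 and 0.116 with EZH2 (0.111 ± 0.00520, SD, n = 4). Position 63743744 on chromosome 11 (0.112 ± 0.0149), 3977290 on chromosome 19 (0.117 ± 0.00936), 39710827 on chromosome 22 (0.121 ± 0.0264) and 2011569 on chromosome 16 (0.122 ± 0.0196) came next. Values this low lie close to the lowest level that a dCas13d-ADAR list held at all, 0.0755. Listed values could thus not spread much further down, and a small SD here need not mean a steady level.

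Some members had a small SD at a higher level. Position 56619231 on chromosome 12 had the smallest spread of all members in 4 lists, at 0.233 and 0.240 with NT and 0.240 and 0.238 with EZH2 (0.238 ± 0.00315, SD, n = 4). Position 44222104 on chromosome 6 held 0.352 ± 0.0131 and position 50052693 on chromosome 14 held 0.133 ± 0.0112. The widest spread was at position 100802431 on chromosome 7, at 0.167 and 0.545 with NT and 0.300 and 0.600 with EZH2 (0.403 ± 0.205). Position 22477720 on chromosome 8 had NT replicate 1 at 0.615 against 0.267 to 0.308 in the other libraries. Position 26156316 on chromosome 1 had 0.600 and 0.467 with NT and 0.250 and 0.300 with EZH2.

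Among members in exactly 3 lists, the highest was position 6440856 on chromosome 19, at 0.529 with NT replicate 2 and at 0.769 and 0.529 with EZH2 (mean 0.609 ± 0.138, SD, n = 3). Position 48970490 on chromosome X (0.590 ± 0.213), 42091741 on chromosome 17 (0.547 ± 0.0605), 74924507 on chromosome 15 (0.537 ± 0.116) and 101992490 on chromosome 10 (0.525 ± 0.102) followed. All but the site on chromosome 17 lacked NT replicate 1. Just outside the rule lay position 48890109 on chromosome 8, at 0.747 ± 0.05 (n = 4) in dCas13d-ADAR and in 1 REPAIR.t1 list at 0.5. Position 48890114, 5 bases away, was at 0.610 ± 0.0443 and in the same REPAIR.t1 list at 0.360, and position 150763835 on chromosome 7 was at 0.575 ± 0.132 and in 1 REPAIR.t1 list at 0.5. Outside on the other side were 1261 sites in exactly 2 dCas13d-ADAR lists and no REPAIR.t1 list, with a median level of 0.247. Their highest were position 101992810 on chromosome 10 (0.789), 72119221 on chromosome 16 (0.746) and 42855962 on chromosome 6 (0.737).

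Because the members were chosen on all 8 lists, the choice was repeated with the libraries of 1 guide. It was read in the libraries of the other, which took no part in it. For this, EZH2 in dCas13d-ADAR and EZH2_A22 in REPAIR.t1 were treated as 1 guide. Their labels differ, so editor and guide label cannot be told apart in those libraries. Sites chosen with NT libraries as edited by dCas13d-ADAR alone were listed by dCas13d-ADAR more often than by REPAIR.t1 with the EZH2 guides as well, but many reappeared under REPAIR.t1. There were 1034 sites in both NT lists of dCas13d-ADAR and neither NT list of REPAIR.t1. The EZH2 libraries of dCas13d-ADAR listed 54.6% and 53.0% of them, and the EZH2_A22 libraries of REPAIR.t1 listed 23.2% and 25.3%. In all, 385 of the 1034 (37.2%) were in at least 1 EZH2_A22 list of REPAIR.t1. Both EZH2 lists of dCas13d-ADAR and neither EZH2_A22 list of REPAIR.t1 held 178 (17.2%), the members in all 4 dCas13d-ADAR lists. That condition was met by 5.41% of all sites of the 2 editors, which include sites in 1 list only. It was met by 153 (8.07%) of the 1895 sites in both NT lists of dCas13d-ADAR and at least 1 of REPAIR.t1.

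With the guides exchanged, the values were close. Of 931 sites chosen with the EZH2 and EZH2_A22 libraries, the NT libraries of dCas13d-ADAR listed 51.8% and 54.9% and those of REPAIR.t1 listed 22.1% and 21.1%. Both NT lists of dCas13d-ADAR and neither of REPAIR.t1 held the same 178 (19.1%), against 6.01% of all sites of the 2 editors. Of the 1950 sites in both EZH2 lists of dCas13d-ADAR and at least 1 EZH2_A22 list of REPAIR.t1, 189 (9.69%) met that condition. Sites in both choosing dCas13d-ADAR lists and in at least 1 choosing REPAIR.t1 list behaved otherwise. Of the 1895 such sites chosen with NT, the held-out libraries of dCas13d-ADAR listed 80.5% and 80.3% and those of REPAIR.t1 listed 68.8% and 66.5%. Sites chosen with NT for REPAIR.t1 alone mirrored those chosen for dCas13d-ADAR alone. Of 491 sites in both NT lists of REPAIR.t1 and neither of dCas13d-ADAR, REPAIR.t1 listed 49.1% and 47.3% with the EZH2_A22 guide. The EZH2 libraries of dCas13d-ADAR listed 23.4% and 21.8% of them. Depth was unknown in both editors, and its part in these shares was not tested.

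**Figure D3:**
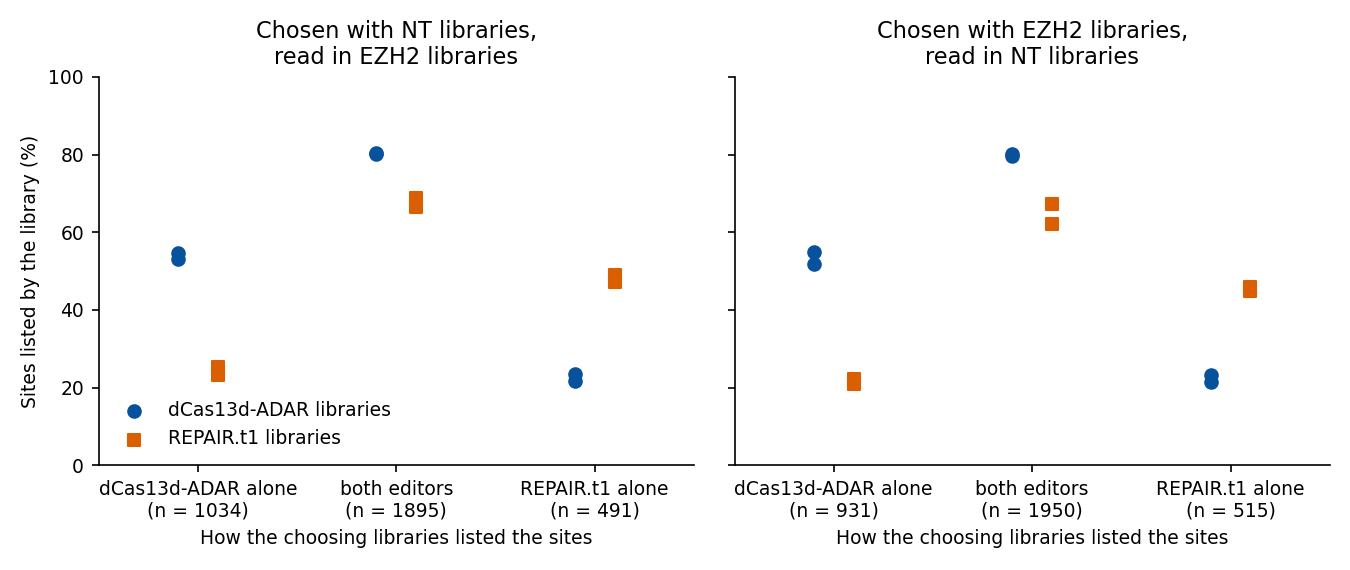
Percent of sites listed by each held-out library (vertical axis), for sites chosen with the NT libraries (left) or the EZH2 and EZH2_A22 libraries (right) and grouped by whether both choosing dCas13d-ADAR lists and no choosing REPAIR.t1 list, both choosing dCas13d-ADAR lists and at least 1 of REPAIR.t1, or both of REPAIR.t1 and none of dCas13d-ADAR held them. Each point is 1 library; at sites chosen for dCas13d-ADAR alone its libraries lie at 51.8% to 54.9% and those of REPAIR.t1 at 21.1% to 25.3%.

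The rule did not use the guide labels, but being in at least 3 of the 4 lists put every member under both guides. The test used sites in all 4 lists, so a site listed under a single guide could not enter it. Within these limits, no member passed the test between guides. Of the 178 members in all 4 dCas13d-ADAR lists, 0 passed an adjusted p of 0.05 between EZH2 and NT in limma (log2 odds of the level), fitted over 1665 sites, of which 0% passed. At an unadjusted p below 0.05 in limma there were 4 members, or 2.25%, against 5.23% of all sites. That order rests on single libraries: there were 9 members (5.06%, against 4.26% of all sites) without EZH2 replicate 1 and 10 (5.62%, against 4.44%) without EZH2 replicate 2, and 2 (1.12%) and 3 (1.69%) without NT replicates 1 and 2, against 3.003% and 2.46%. The EZH2 and NT values did not overlap at 56 members (31.5%), near the 31.7% of all sites, so this share is not a result about the members. Of the 178, 96 had the higher mean with EZH2, and over all 648 members the median difference of EZH2 minus NT was 0.00232. The median SE of a member was 0.491 on the log2 odds scale.

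Of the 4 members at an unadjusted p below 0.05 in limma, 3 were lower with EZH2 and 1, position 74336155 on chromosome 16, was higher. Position 26156316 on chromosome 1 averaged 0.533 with NT and 0.275 with EZH2 (log2 odds difference -1.56, SE 0.49, limma adjusted p = 0.617). Position 102508768 on chromosome 14 averaged 0.636 and 0.371 (-1.54, SE 0.49, limma adjusted p = 0.617). Position 87865505 on chromosome 16 averaged 0.315 and 0.156, position 73646213 on chromosome 7 averaged 0.367 and 0.236, and position 56670998 on chromosome 19 averaged 0.475 and 0.333. In the other direction position 74336155 on chromosome 16 averaged 0.164 with NT and 0.303 with EZH2 (1.10, SE 0.49, limma adjusted p = 0.922). Position 153933148 on chromosome 1 (0.243 and 0.394), 64786105 on chromosome 11 (0.158 and 0.280), 29543179 on chromosome 1 (0.325 and 0.496) and 179225014 on chromosome 5 (0.334 and 0.497) had values of the same sign. These 10 sites were picked by the smallest unadjusted p of this limma test in each direction. That the libraries of the guides overlapped at none of them follows largely from the choice. Of all sites tested, 31.7% had no overlap. None of the 10 passed the adjusted threshold.

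**Figure D4:**
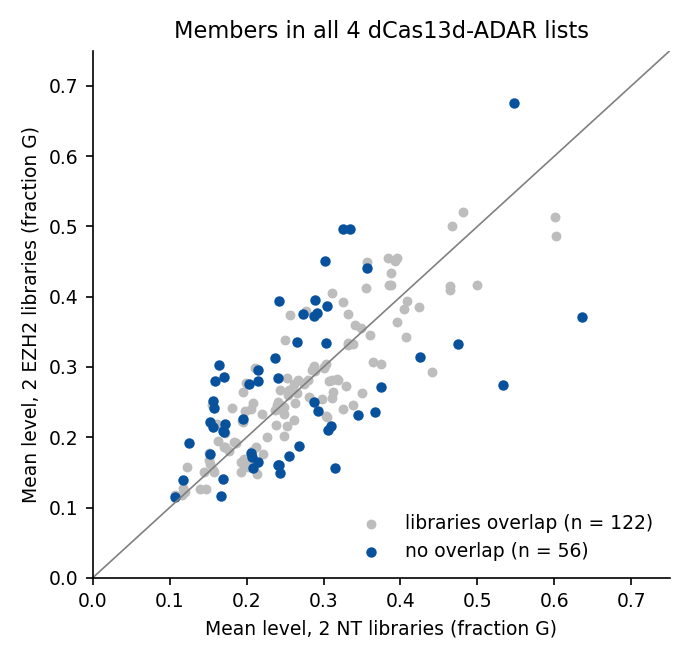
Mean level (fraction of reads with G) in the 2 EZH2 libraries against that in the 2 NT libraries of dCas13d-ADAR, 1 point for each of the 178 members in all 4 lists; the line marks equal levels, and blue points are the 56 members whose EZH2 and NT values do not overlap. Points lie on both sides of the line, 96 of them above it.

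Members were seldom in the lists of editors the rule did not use. REPAIRv2 listed 2 of the 648 (0.309%), against 141 (5.37%) of the 2628 sites shared with REPAIR.t1. It listed 105 (13.3%) of the 788 in all 4 REPAIR.t1 lists and 25 (4.08%) of the 612 in 3. Shared sites in fewer lists were also seldom listed, with 3 (0.483%) of the 621 in 2 and 8 (1.32%) of the 607 in 1. Position 6440856 on chromosome 19, the highest member in 3 lists, was listed by REPAIRv2 NT replicate 2 at 0.364. Position 19304914 on chromosome 19 was listed by REPAIRv2 NT replicate 1 at 0.273, the value it also had in 3 of the 4 dCas13d-ADAR libraries (mean 0.301 ± 0.0559, SD, n = 4). The EZH2_A22 libraries of REPAIRv2 listed no member. The REPAIRv2 lists held 46 to 101 sites each, and the part of the lower level of the members in their share was not tested. The share rests on 2 sites and was 0.671% without dCas13d-ADAR NT replicate 1, and 0.642%, 0.5% and 0.614% without REPAIR.t1 NT replicate 2, EZH2_A22 replicate 1 and EZH2_A22 replicate 2.

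DECOR listed 20 members (3.09%), against 111 (4.22%) of the shared sites. With 1 library left out, the share of members ran from 2.01% (without dCas13d-ADAR NT replicate 1) to 4.03% (without dCas13d-ADAR EZH2 replicate 2). DECOR replicate 1 listed 14 members (2.16%, against 2.97% of shared sites) and DECOR replicate 2 listed 10 (1.54%, against 2.78%). The SD over its 2 libraries was 0.436 percentage points for the members. Both DECOR libraries listed 4 members. At position 62649386 on chromosome 11 DECOR gave 0.176 and 0.169 and dCas13d-ADAR 0.185 ± 0.0342 (SD, n = 4). At position 60714868 on chromosome 20, the lowest of the members in all 4 dCas13d-ADAR lists, it gave 0.0952 and 0.0889. At position 99695808 on chromosome 7 it gave 0.125 and 0.113, against 0.176 ± 0.00854 (n = 3) in dCas13d-ADAR. At position 14625673 on chromosome 19 it gave 0.289 and 0.246, against 0.328 ± 0.0255 (n = 3). All 4 were lower in DECOR than the dCas13d-ADAR mean in both of its libraries. This was not particular to members. The dCas13d-ADAR mean was the higher at 71 of 78 shared sites in DECOR replicate 1 and 65 of 73 in replicate 2. For members it was the higher at 8 of 14 and 9 of 10. Over the 14 members of DECOR replicate 1 the medians were 0.179 in dCas13d-ADAR and 0.175 in DECOR, and over the 10 of replicate 2 they were 0.227 and 0.168.

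The surroundings of the members also held fewer REPAIR.t1 sites, although the rule looked only at the position itself. Of the 648 members, 139 (21.5%, 95% Wilson interval 18.5% to 24.8%, treating sites as independent) had a REPAIR.t1 site within 50 bases, against 870 (33.1%) of the shared sites. For neighbours listed by dCas13d-ADAR the shares were 265 (40.9%) and 1069 (40.7%). The 334 converse sites showed the reverse, with 116 (34.7%) near another REPAIR.t1 site and 64 (19.2%) near a dCas13d-ADAR site. By the number of REPAIR.t1 lists that held the site, the share near a REPAIR.t1 site went from 21.5% at 0 lists to 26.5%, 29.1%, 33.0% and 41.4% at 1 to 4. Library by library, 10.0% to 12.2% of the members lay within 50 bases of a site of a given REPAIR.t1 list, against 17.6% to 20.1% of the shared sites. These ranges did not overlap, but the same sites were counted against each list and the rule used these lists. The libraries are therefore not independent checks. For the dCas13d-ADAR lists the ranges were 23.6% to 26.7% and 25.5% to 26.3%. These shares are a description, since neighbouring sites can lie on the same reads. Leaving out neighbours that were members or converse sites themselves, which was chosen after seeing the data, gave 36.3% of members near a dCas13d-ADAR site, against 39.1% of shared sites and 19.2% of converse sites. For REPAIR.t1 neighbours it gave 21.5%, 32.7% and 30.5%.

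**Figure D5:**
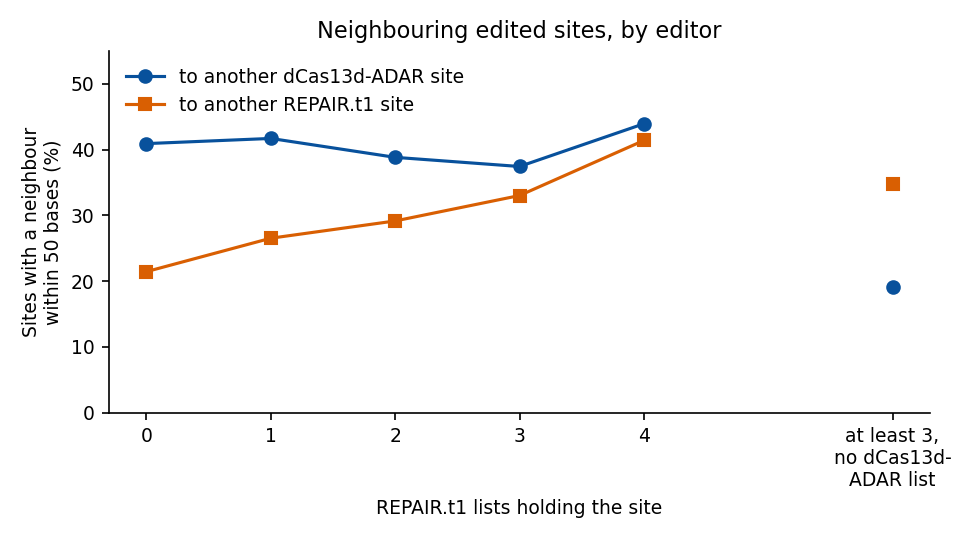
Percent of sites with another listed site within 50 bases (vertical axis), by the number of REPAIR.t1 lists that held the site, for sites in at least 3 dCas13d-ADAR lists; the members are at 0, and the points at the right are the 334 sites in at least 3 REPAIR.t1 lists and no dCas13d-ADAR list. Circles count dCas13d-ADAR neighbours and squares REPAIR.t1 neighbours, which stand at 40.9% and 21.5% for the members and at 19.2% and 34.7% for the converse sites.

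Some members lay right beside sites that REPAIR.t1 listed in every library. A site in all 4 REPAIR.t1 lists lay within 50 bases of 23 members (3.55%), chosen after their values were seen. Such closeness was less frequent for members than for shared sites. A site in at least 3 REPAIR.t1 lists lay within 50 bases of 6.64% of members and 12.9% of shared sites. These 23 members had a median level of 0.189. On chromosome 19, position 4090528 averaged 0.234 ± 0.0535 (SD, n = 4) in dCas13d-ADAR and was in no REPAIR.t1 list. The site 10 bases away at position 4090518 was at 0.316 ± 0.0545 in dCas13d-ADAR and at 0.155 ± 0.0205 in REPAIR.t1 (n = 4 each). Member 1088503 on chromosome 19 (0.230 ± 0.0914, n = 4) lay 19 bases from position 1088522, at 0.354 ± 0.0578 in dCas13d-ADAR and 0.149 ± 0.0129 in REPAIR.t1. On chromosome 3, member 33155656 (0.422 ± 0.131, n = 3) lay 16 bases from position 33155672, which was at 0.424 ± 0.0505 and 0.355 ± 0.0950.

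Most of these neighbours had lower levels in REPAIR.t1 than in dCas13d-ADAR. Of the 24 neighbours, 23 were in all 8 lists, and 22 of these had the higher mean in dCas13d-ADAR, with a median difference of 0.120. Over all 609 sites in all 8 lists, 455 (74.7%) were higher in dCas13d-ADAR, with a median difference of 0.0496. The neighbours were reached through members, which the rule chose as listed by dCas13d-ADAR and not by REPAIR.t1. Sites this close can lie on the same reads, so the direction may follow in part from that choice. The comparison was made after the values were seen and was not tested.

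Within 100 bases of another member lay 56 members in 27 groups, and 592 had no other member that near. Sites in at least 3 dCas13d-ADAR lists, members or not, lay within 50 bases of 19.4% of members and 19.7% of shared sites. Of the 27 groups, 25 were pairs and 2 held 3 members. The densest was on chromosome 11, where positions 62649501, 62649531 and 62649536 were at 0.269 ± 0.0241, 0.179 ± 0.0131 and 0.155 ± 0.0252 (SD, n = 4 each). No REPAIR.t1 list held a site between the first and last of them, and the member 62649386, also in both DECOR lists, lay 115 bases before and 15 bases from a site in 3 REPAIR.t1 lists. On chromosome 19, positions 51301162, 51301165 and 51301261 were at 0.183 ± 0.0297 (n = 4), 0.169 ± 0.0221 (n = 3) and 0.196 ± 0.0372 (n = 4), and 1 REPAIR.t1 site, 24 bases from the last of them, lay in their span. Positions 40329796 and 40329797 on chromosome 19 were adjacent bases, at 0.137 ± 0.0149 and 0.161 ± 0.0320 (n = 3 each). Members this close may share reads and are not independent observations.

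The members were spread over chromosomes unevenly. Chromosome 19, which is dense in genes, held 108 of them (16.7%), against 13.8% of the shared sites and 3.29% of the converse sites. Chromosome 22 held 52 (8.02%), against 4.83% and 1.80%. Chromosome 2 held 16 (2.47%), against 4.45% and 10.5%. By the number of REPAIR.t1 lists, from 0 to 4, the share on chromosome 22 was 8.02%, 5.60%, 4.99%, 4.90% and 4.06%. On chromosome 19 it was 16.7%, 15.8%, 14.2%, 14.4% and 11.5%, so sites in 1 list were close to the members. On chromosome 2 it was 2.47%, 4.28%, 4.03%, 4.58% and 4.82%. Of the sites in at least 3 dCas13d-ADAR lists, 29.1% on chromosome 22 were members, against 12.0% on chromosome 2. Whole lists differed in the same direction, since chromosome 19 held 12.3% to 13.1% of the sites of a dCas13d-ADAR list and 7.83% to 8.90% of those of a REPAIR.t1 list. The 3 chromosomes were picked after their shares were seen, and the parts of gene content, transcript level and base composition were not tested.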

How the data were processed

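Per the labels' protocols, libraries were made from polyadenylated RNA with a directional kit. The submitters' processing notes name cutadapt, STAR 2.6.1b, hg19 and GRCh37, without roles. Each of the 14 files the authors deposited is 1 library's list of sites, with the A-to-G rate as a fraction, per the file headers. No source used here gives the site caller, its thresholds, the coverage or how genomic variants were handled. Whether positions count from 0 or 1 is not stated, and they are printed as given.

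Groups came from the titles. The members and the lists of sites they are set against were chosen with earlier results of these data known. Nearest distances ignored strand. Levels were tested between guides as log2 odds, adding 0.01 to both the level and its complement, in limma 3.58.1 (R 4.3.3) over sites in all 4 dCas13d-ADAR lists, with Benjamini-Hochberg adjustment at 0.05. It dropped the 470 members missing from 1 list, which entered only an alternative.

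Sites are named by a rule: among members in all 4 lists the 15 highest and 5 lowest means and the 5 smallest and 5 largest SDs, the 5 highest in 3 lists, those in REPAIRv2 or in both DECOR lists, the 3 densest groups within 100 bases, 5 each way by unadjusted p for the guide, and 3 on each side just outside. The text marks any other site as picked with its value known. Other settings were minimum levels of 0.1 and 0.2, other numbers of lists, windows of 10 and 200 bases, each library left out, an added 0.001, untransformed levels, a mean-dependent spread and the replicate block. Python 3.11.15, numpy 2.4.6, pandas 2.3.3, scipy 1.17.1 and matplotlib 3.10.9 were used. Genes, transcript regions and sequence were not analysed here for lack of an hg19 reference.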

Additional observations from a re-analysis of the deposited data

Results flagged for a closer look

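In 43 sets of 4 libraries, the gap of 1 library to the nearest other was set against the range of the set. The sets were summaries of the members and the named members in all 4 lists. In 4 sets this ratio passed Dixon's 95% critical value for 4 samples. Levels can be tied between libraries, so the rate of about 1 in 20 for which that value is set need not hold here. At position 22477720 on chromosome 8, dCas13d-ADAR NT replicate 1 stood at 0.615 and the other 3 at 0.267 to 0.308. At position 19304914 on chromosome 19, NT replicate 2 stood at 0.385 and the other 3 at 0.273. At position 51301162 on chromosome 19, NT replicate 1 stood at 0.227 and the others at 0.167 to 0.171. The median level of the members was 0.247 in EZH2 replicate 2 and 0.250 in each of the other 3. In this set and at position 19304914 the other 3 values were tied, so a difference of any size would have been flagged.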

How the results depend on the processing

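The number of members moved with the rule, by construction. It was 378 with a level of at least 0.2 needed in dCas13d-ADAR lists, 178 with all 4 of these lists required, 1909 with at least 2, and 1255 where 1 REPAIR.t1 list was allowed. It ran from 279 to 814 with 1 library left out; leaving out any dCas13d-ADAR library (NT replicate 1, 298; NT replicate 2, 279; EZH2 replicate 1, 307; EZH2 replicate 2, 298) asks for all of the remaining 3. The median level was 0.297 with a minimum of 0.2 in both editors, 0.305 with that minimum in dCas13d-ADAR alone, 0.258 with all 4 lists, 0.250 with at least 2, 0.265 with 1 REPAIR.t1 list allowed and 0.259 without sites within 50 bases of a REPAIR.t1 site. It was 0.251 to 0.261 with 1 library left out.

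The share in a DECOR list was 1.59% with the minimum of 0.2 in dCas13d-ADAR alone and 2.01% to 4.03% with a library left out. The share in a REPAIRv2 list, which rests on 2 members, was 0.407% and 0.529% under the minimums of 0.2, 0.562% with all 4 lists, 0.797% with 1 REPAIR.t1 list allowed, and 0.248% to 0.671% with a library left out. The share near a REPAIR.t1 site was 17.5% with the minimum of 0.2 in dCas13d-ADAR alone, 4.63% within 10 bases, 42.0% within 200 bases, and 17.75% to 22.8% with a library left out. The median difference of EZH2 minus NT was 0 with a minimum of 0.2 in both editors or at least 2 lists, -0.00177 with the minimum in dCas13d-ADAR alone, and -0.00412 to 0.00864 with a library left out, so it has no settled sign.

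Chosen with 1 dCas13d-ADAR library in place of both, the held-out dCas13d-ADAR libraries listed 33.5% and 32.5% (NT replicates 1 and 2) and 31.3% and 32.6% (EZH2 replicates 1 and 2) of the sites; the REPAIR.t1 libraries then listed 15.4%, 15.2%, 13.0% and 12.8%. In limma, 0 members passed between guides under any alternative, the replicate block included. Deviations of same-numbered libraries from the mean of their guide correlated at 0.024 over 1665 sites. With 2 libraries per guide, this value cannot show whether the numbers mark a pairing. A shift common to all sites would not appear in it. The block took the sites at an unadjusted p below 0.05 in limma from 87 to 70. Depth limits every absence from a list.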
